A study of Homo sapiens with 12 samples.

Results

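HTB56 cells that had passed through 3 rounds of selection in mouse lungs (H3R, 3 arrays) were compared with A549 cells that had passed through the same number of rounds (A3R, 3 arrays). These 6 of the 12 arrays of the series were taken by their titles. The baseline for the comparison was the same contrast between the lines before any selection, HTB56 (H0R, 3 arrays) against A549 (A0R, 3 arrays). Selected cells were those that had formed nodules in the lungs of mice after injection into a vein, and the unselected cells were the lines as cultured. No group had been given 5-azacytidine, and all RNA was total RNA measured on Affymetrix whole-transcript arrays. The labels give neither the number of mice behind a selected line nor whether its cells came from 1 nodule or several, and they do not say that the 3 arrays of a group were separate cultures. The p-values below therefore measure only the spread between these arrays, which may be technical. Each line is a single culture from a single tumour, so a difference between the groups is a difference between these 2 lines and not between kinds of tumour.

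A549 is a lung adenocarcinoma line that keeps epithelial features. It is known for an inactive KEAP1, which leaves the transcription factor NRF2 and its detoxifying and antioxidant targets permanently on, for the lack of a working SMARCA4 chromatin remodeller, and for the loss of the chromosome 9 segment that carries CDKN2A and MTAP. HTB56, also sold as Calu-6, was taken from an anaplastic lung carcinoma and is the less differentiated of the pair. Cells that colonise the lung from the blood have to survive in the vessels, stick to the wall, cross it and grow, steps in which adhesion molecules, clotting factors, chemokines, proteases and growth factor receptors are known to take part.

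Values are log2 RMA levels, so a difference of 1 is a 2-fold change, and every difference is given as H3R minus A3R unless another contrast is named. A gene was called changed where limma's moderated test, adjusted over all 16939 genes tested, gave an adjusted p below 0.05. The 20th percentile of an array averaged 3.48, and levels within about 1 of it are called near the background. Array medians lay between 5.55 and 5.67, arrays of a group correlated at 0.988 to 0.995 across probe sets, and H3R arrays correlated with A3R arrays at 0.949 to 0.959.

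Genes for which these lines are known to differ were read first. MTAP had 7.55, 7.83 and 7.86 in H3R, against 4.30, 4.21 and 4.30 in A3R, where every array was near the background. SMARCA4 averaged 9.78 ± 0.13 in H3R and 6.21 ± 0.13 in A3R (SD, n = 3 each), CDKN2A averaged 7.0 ± 0.11 in H3R and 5.93 ± 0.18 in A3R, and the epithelial keratin KRT19 averaged 6.22 ± 0.29 in H3R and 9.96 ± 0.10 in A3R. Unselected cells gave the same order for all 4 genes. Of 3 genes tested from the chromosome 9 segment lost in A549, 2 were higher in H3R and 1 was not called. All 3 were higher in H0R than in A0R, and 1 difference vanished. The 5.93 of CDKN2A in A3R lay above the highest array median of 5.67, although A549 is known to have lost the gene. The source of that signal was not tested. 1 array stood apart. On 24 genes with high levels in HTB56 at both stages and low levels in A549 at both, A0R replicate 2 lay 0.815 above the A549 median, while the other A549 arrays lay between -0.176 and 0.052 of it. SLC14A1, for example, had 4.03, 7.69 and 4.25 in A0R. The array is in the baseline and in no level or difference of H3R against A3R. It does enter the standard errors (SE), p-values and calls of that contrast, because all arrays were fitted together. Leaving it out lowered the SE of H3R minus A3R for SLC14A1 from 0.65 to 0.18. For CDH1 the SE rose from 0.154 to 0.160. Counts that use the baseline are given with and without the array below.

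Markers of host tissue were examined because the selected cells had lived in mouse lungs. Endothelial PECAM1 (3.98 in H3R, 4.0 in A3R) and CDH5 (4.41 and 4.40) and lymphocyte CD3E (4.04 and 4.19) did not pass the test, and lymphocyte MS4A1 (3.31 and 3.32) was at the background in both groups. Of 12 endothelial markers, 3 were higher and 2 lower in H3R, so 41.7% were called, against 44.6% of all genes. Between the unselected lines 8.33% were called. ENG (1.74) was higher, and KDR (-0.33) and SOX18 (-0.26) were lower. Of 16 leukocyte markers, 2 were higher and 3 lower in H3R (31.2% called). The mean over 16 leukocyte markers was 4.88 to 5.12 on H3R arrays and 4.86 to 4.99 on A3R arrays, and over 12 endothelial markers it was 5.16 to 5.26 on H3R arrays and 5.03 to 5.18 on A3R arrays. The mean over 10 fibroblast markers was 5.87 to 6.06 in H3R and 5.83 to 5.92 in A3R, against 5.31 to 5.57 in H0R and 5.53 to 5.72 in A0R, so it was higher on every selected array than on every unselected array. The part that host RNA or cross-hybridising mouse sequence played in any result was not tested, and more marker-bearing cells cannot be told apart from more RNA per cell in bulk samples. PDGFRA was 2.97 and PDGFRB 1.55 higher in H3R than in A3R, and the unselected lines differed by 2.12 and 1.69. COL3A1 was 1.29 higher in H3R and was a new difference. Whether tumour or host cells expressed these genes was not tested. Of the 10 fibroblast markers, 5 were higher and 2 lower in H3R, so 70% were called, against 44.6% of all genes. Between the unselected lines 3 were higher and 3 lower in H0R. The 2 markers lower in H3R were C1S (-5.13) and C1R (-2.96).

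After selection the lines differed in 7554 of 16939 genes (44.6%), of which 4216 were higher (24.9%) and 3338 lower (19.7%) in H3R. The counts of the gene lists below are to be set beside these shares. With cyclic loess scaling 3635 genes were higher and 3881 lower in H3R, so the excess of higher genes depends on the scaling. The arrays of the groups did not overlap for 8733 genes (51.6%). At least 2-fold differences numbered 2101, of which 1036 were higher and 1065 lower, and at least 16-fold differences numbered 123, of which 37 were higher and 86 lower in H3R. Before selection 7648 genes (45.2%) differed, 4211 higher (24.9%) and 3437 lower (20.3%) in H0R, with 149 at 16-fold or more. Across genes, which are not independent replicates, the line differences before and after selection correlated at 0.863 (Pearson) and 0.769 (Spearman). These 2 contrasts share no array.

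Of the called differences, 5496 genes (32.4% of those tested) remained, meaning that they were called in the same direction before and after selection. They made up 72.8% of the calls after selection and 71.9% of those before. New differences, called after selection and not before, with a called change in the line difference itself, numbered 459 (2.71%), 236 higher and 223 lower in H3R. Differences that vanished, by the reverse rule, numbered 532 (3.14%), of which 319 had been higher and 213 lower in H0R. The direction turned round in 146 genes (0.862%). A further 1453 genes were called only after selection and 1474 only before, without a called change in the difference, and these were left unresolved. The line difference itself changed in 2000 genes (11.8%), 885 upward (5.22%) and 1115 downward (6.58%). With the replicate number as a block, which the arrays bore out, the line difference changed in 3458 genes, 737 were new, 833 vanished and 315 turned round. Without A0R replicate 2 there were 395 new, 440 vanished and 123 turned-round genes, of which 323, 404 and 111 were in the original sets. By that fit 7500 genes were called after selection and 6988 before it, 5196 differences remained and 1701 changed.

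**Figure D1:**
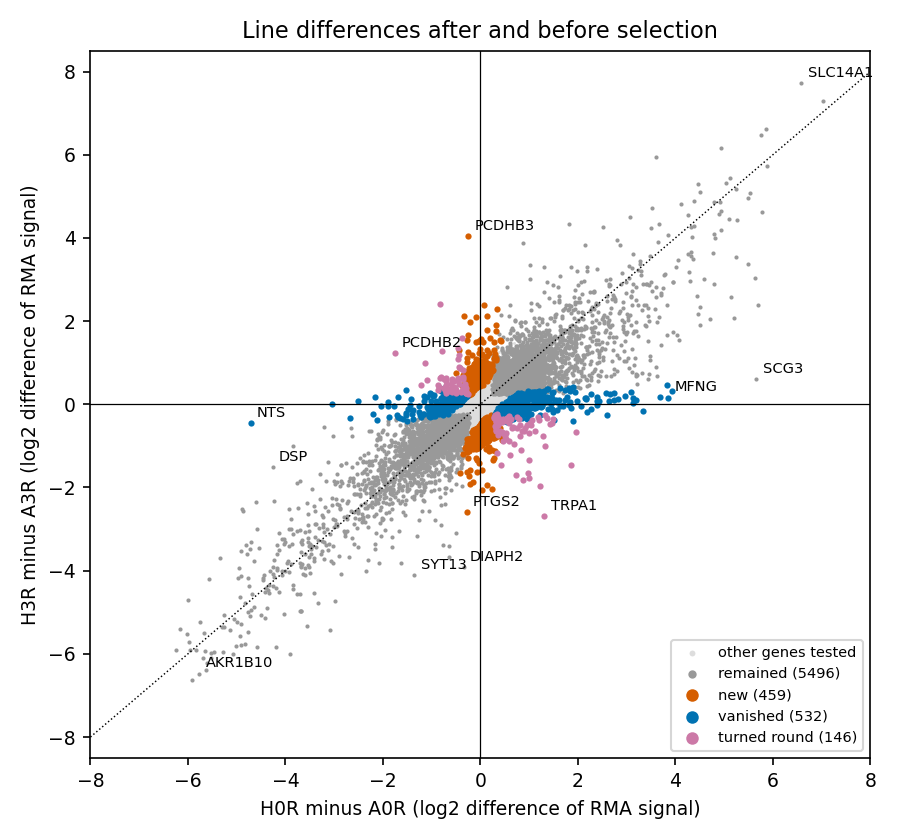
Line difference of each gene before selection (H0R minus A0R, log2, x axis) and after it (H3R minus A3R, log2, y axis), coloured by class, with the dotted diagonal marking equal differences. Most of the 5496 remaining genes lie along the diagonal (r 0.863 across all genes), while PCDHB3 and DIAPH2 lie far from 0 on the y axis alone and MFNG and NTS on the x axis alone.

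The typical distance between the lines was little altered. Within pairs of the same replicate number, the median absolute difference per gene was 0.3159, 0.3083 and 0.3154 for H3R against A3R, and 0.3192, 0.3367 and 0.3175 for H0R against A0R. Every selected pair was closer than every unselected pair here, but the pairs overlapped with no filter on dim genes (exact p = 0.3) and with the median filter (exact p = 0.2). The mean difference was -0.0113, with an exact two-sided permutation p of 0.1, the smallest that 3 against 3 allows. Without replicate 2, the number of the array that stood apart, the mean difference was -0.00269.

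The 12 largest and the 12 lowest differences were called in the same direction before selection too. IL7R, the receptor chain for the lymphocyte growth factor interleukin-7, had 10.47, 10.42 and 10.63 in H3R, against 3.79, 3.97 and 3.87 in A3R. All 3 H3R arrays were bright and all 3 A3R arrays near the background, 98.9-fold apart, a difference of 6.63 (SE 0.34, limma adjusted p = 9.2e-10). The SE of this difference was 0.11 without A0R replicate 2. The urea transporter SLC14A1 (7.72), the fatty acid carrier FABP4 (7.29), the collagen VI chain COL6A3 (6.48), the cancer-testis antigen MAGEB2 (6.16), the cadherin CDH19 (5.95), the insulin-like growth factor binder IGFBP5 (5.72), the secreted serpin SERPINF1 (5.44), the metalloprotease inhibitor TIMP3 (5.33), the forkhead gene FOXR1 (5.30), the endotoxin receptor TLR4 (5.17) and the ketone-using enzyme OXCT1 (5.10) completed the 12 genes highest in H3R. Of these 12, CDH19 and MAGEB2 had a called change in the line difference, 2.35 (SE 0.39, limma adjusted p = 0.0011) for CDH19. Without A0R replicate 2 the change in FABP4 was called too, -0.89 with an adjusted p of 0.047. In CDH19 the level was 9.45, 9.24 and 9.43 in H3R, against 7.90, 7.57 and 8.0 in H0R.

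At the other end, CYP24A1, which breaks down vitamin D, had 6.01, 5.17 and 6.46 in H3R, against 12.48, 12.51 and 12.57 in A3R, a difference of -6.64 (SE 0.28, limma adjusted p = 9.6e-11). The aldo-keto reductase AKR1B10 had 6.78, 5.5 and 6.78 in H3R, against 12.86, 12.88 and 12.75 in A3R. The groups were far apart, 88.9-fold, although the H3R arrays themselves spread over more than 1 log2 unit for both genes. The other 10 of the 12 lowest genes were the nuclear receptor corepressor NRIP1 (-6.38), the neural adhesion molecules CNTN1 (-6.22) and NRCAM (-5.99), the glutathione peroxidase GPX2 (-6.10), the aldo-keto reductase AKR1C2 (-6.09), the export pump ABCC2 (-5.99), the oncostatin M receptor OSMR (-5.98), the chaperone HSPA13 (-5.96), the protease inhibitor TFPI2 (-5.96) and the RNA-binding BICC1 (-5.93). ABCC2 moved furthest of these with selection. It had 5.90, 5.61 and 5.48 in H3R, against 7.73, 8.15 and 7.45 in H0R, and A549 levels averaged 11.65 in A3R and 11.69 in A0R, so the line difference changed by -2.08 (SE 0.26, limma adjusted p = 1.1e-04).

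The NRF2 and xenobiotic genes had the largest share of members called of any list, 100%, against 44.6% of all genes. Of 38 tested, 36 were lower and 2 higher in H3R, with a median difference of -2.29, against 19.7% lower and 24.9% higher and a median of 0.0064 over all genes. The same split of 36 lower and 2 higher held between the unselected lines (median -2.19), and all 38 differences remained, where 32.4% of all genes did. The quinone reductase NQO1 averaged 9.23 ± 0.33 in H3R and 12.71 ± 0.10 in A3R (SD, n = 3 each), a difference of -3.48 (SE 0.17, limma adjusted p = 6.5e-10), and the gap was wider than the -2.16 of the unselected lines. AKR1C1, a steroid and aldehyde reductase, differed by -5.48 (SE 0.22, limma adjusted p = 7.0e-11). The 2 genes higher in H3R were CYP1A1 (1.41), which is induced by the aryl hydrocarbon receptor, and the glutathione transferase GSTM3 (0.63). Probe sets of the AKR1C genes may share sequence, and cross-hybridisation between them was not tested.

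**Figure D2:**
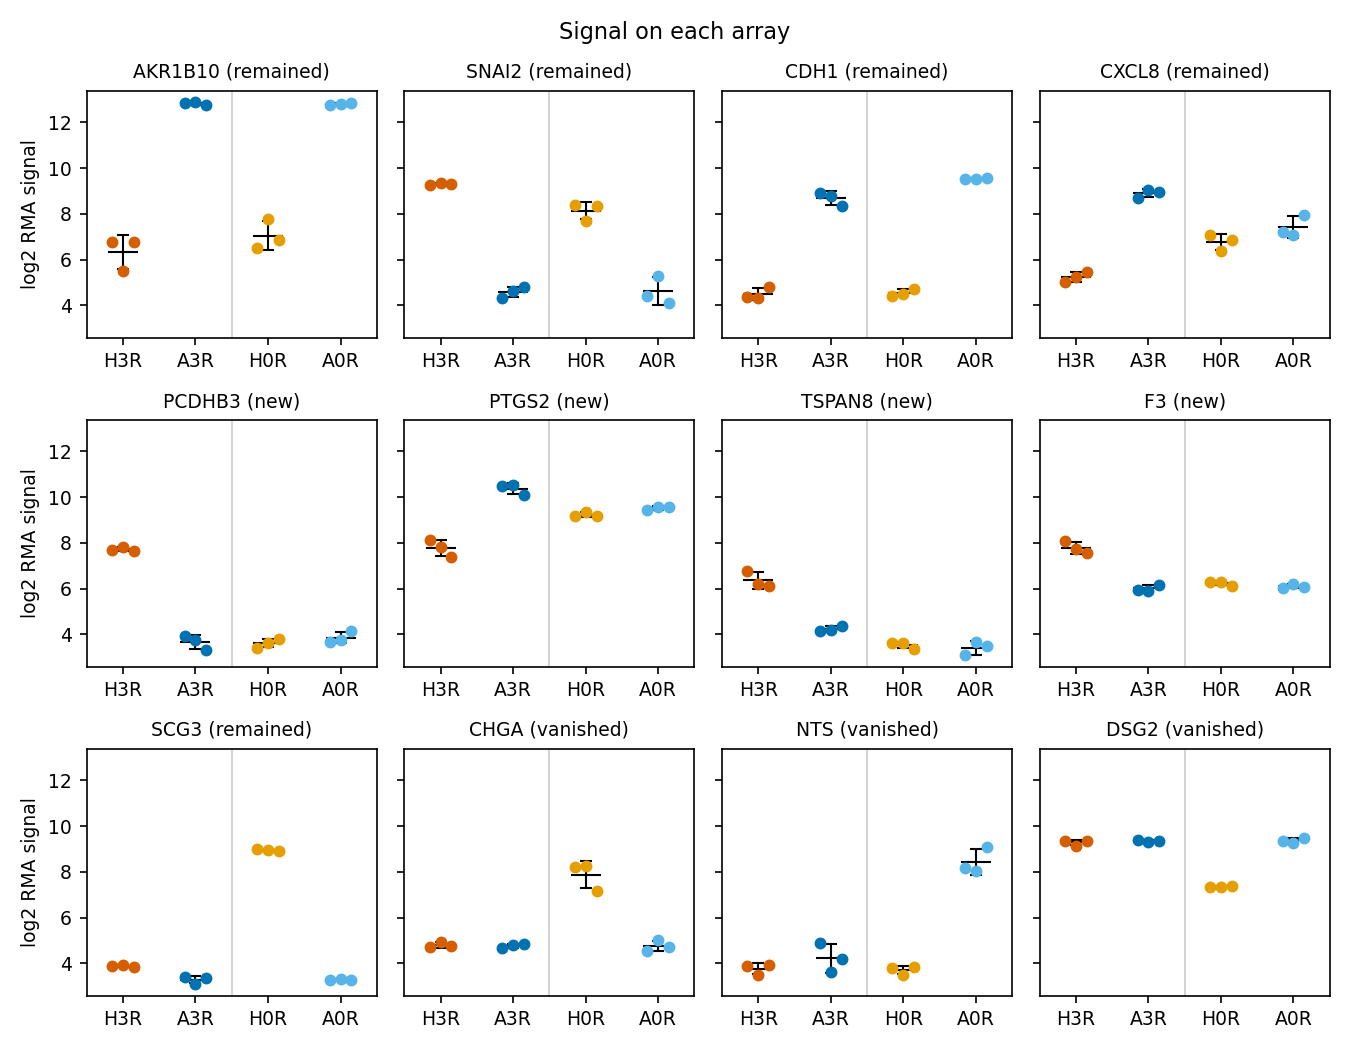
Log2 RMA level on every array for 12 genes, with H3R and A3R on the left and H0R and A0R on the right of each panel; points are arrays and bars the mean ± SD (n = 3). AKR1B10, SNAI2 and CDH1 differ between lines at both stages, PCDHB3, PTGS2, TSPAN8 and F3 were called after selection and not before it, and CHGA, NTS and DSG2 before it and not after.

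Epithelial junction and keratin genes were mostly lower in H3R. Of 34 tested, 18 were lower and 1 higher (median -0.35), against 20 lower and 2 higher between the unselected lines (median -0.43). CDH1, the adhesion molecule of epithelial cell contacts, had 4.38, 4.34 and 4.79 in H3R, against 8.93, 8.77 and 8.34 in A3R. Every H3R array was far below every A3R array, a difference of -4.17 (SE 0.15, limma adjusted p = 2.6e-11). The gap had been wider before selection, -4.98, with A549 levels at -0.85 in A3R relative to A0R and HTB56 levels at -0.05 in H3R relative to H0R. The epithelial transcription factors EHF (-4.35) and ELF3 (-3.56) and the keratins KRT19 (-3.74) and KRT7 (-2.86) were lower too. The exception was MAL2, a protein of apical transport, which was higher in H3R by 1.68.

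Desmosome genes encode the plaques that rivet epithelial cells together. Of 11 tested, none was higher in H3R and 5 were lower (median -0.14), against 6 lower between the unselected lines (median -1.05), and the change in line difference was called for 4. Such a change was called for 11.8% of all genes. The desmosomal cadherin DSG2 had 9.36, 9.15 and 9.36 in H3R, against 9.38, 9.30 and 9.36 in A3R. These arrays overlap, a difference of -0.05 (SE 0.10, limma adjusted p = 0.71), whereas H0R had 7.32, 7.33 and 7.36, against 9.34, 9.28 and 9.50 in A0R. The gap closed on the HTB56 side, where DSG2 was higher in H3R than in H0R by 1.95 (SE 0.10, limma adjusted p = 6.2e-09). The plaque protein DSP kept part of its gap, with 6.52, 6.46 and 6.64 in H3R, against 8.19, 8.32 and 7.64 in A3R, and 4.33, 4.44 and 4.14 in H0R, against 8.62, 8.88 and 8.19 in A0R. Its line difference narrowed to -1.51 after selection, against -4.26 before it. The junction protein JUP differed by -2.27 after selection and -3.29 before, and the cadherins DSC3 and DSC2 by -1.64 and -1.59. EPCAM, another epithelial adhesion molecule, averaged 7.34 ± 0.32 in H3R and 7.60 ± 0.09 in A3R (SD, n = 3 each), and the difference of -1.70 between the unselected lines had vanished.

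Mesenchymal genes leaned the other way. Of 37 tested, 21 were higher and 6 lower in H3R (median 0.69), against 19 higher and 7 lower between the unselected lines (median 0.47). SNAI2, a repressor of CDH1, had 9.27, 9.35 and 9.30 in H3R, against 4.34, 4.62 and 4.80 in A3R. The difference was 4.72 (SE 0.24, limma adjusted p = 9.3e-10), against 3.53 before selection. The change of 1.19 (SE 0.35, limma adjusted p = 0.037) was 0.85 with an adjusted p of 0.054 without A0R replicate 2. The matrix protein SPARC (4.95), the homeobox factor PRRX1 (4.06), TCF4 (3.62), the repressor ZEB1 (1.2) and the filament protein VIM (0.86) were higher as well. Not all members followed. CDH2, the N-cadherin that mesenchymal cells often carry, had been -0.81 between the unselected lines and was -2.90 (SE 0.21, limma adjusted p = 3.8e-08) after selection. It averaged 4.63 ± 0.11 in H3R and 7.53 ± 0.42 in A3R (SD, n = 3 each), and the change was on the A549 side, where it was higher in A3R than in A0R by 1.90 (SE 0.21, limma adjusted p = 1.5e-04). The smooth muscle actin ACTA2 was also lower in H3R (-1.60).

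Chemokine and cytokine genes were lower in H3R for the most part. Of 33 tested, 23 were lower and 3 higher (median -1.16), against 21 lower and 2 higher between the unselected lines (median -0.56), and those at least 2-fold lower numbered 19 after selection and 11 before. Of all 16939 genes, 1065 were at least 2-fold lower after selection and 1147 before. CXCL8, which attracts neutrophils, had 5.02, 5.23 and 5.44 in H3R, against 8.69, 9.02 and 8.97 in A3R. The arrays are more than 3 log2 units apart, a difference of -3.66 (SE 0.22, limma adjusted p = 3.9e-09). Before selection CXCL8 had 7.07, 6.39 and 6.86 in H0R, against 7.20, 7.08 and 7.97 in A0R, a difference of -0.64. The gap opened from both sides, since the difference was -1.55 for H3R relative to H0R and 1.48 for A3R relative to A0R. The related CXCL1 widened in the same way, with -3.39 after selection and -0.77 before. The neutrophil chemokine CXCL5 (-4.73, against -2.98 before) and the monocyte chemokine CCL2 (-4.78, against -3.32 before) widened through A3R, where they were 1.58 and 1.44 above A0R. The inflammasome cytokine IL18 narrowed, with -3.70 after selection and -5.34 before it. IL11 (1.70), IL7 (1.21) and CCL28 (0.36) were the 3 genes higher in H3R.

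PTGS2, the inducible cyclooxygenase that makes prostaglandins, was the largest new difference in the downward direction. It had 8.12, 7.80 and 7.40 in H3R, against 10.47, 10.54 and 10.10 in A3R. Before selection it had 9.19, 9.35 and 9.18 in H0R, against 9.42, 9.56 and 9.58 in A0R. All H3R arrays were below all A3R arrays, a difference of -2.59 (SE 0.16, limma adjusted p = 6.3e-09) or 6.04-fold, where the unselected lines did not overlap either but differed by -0.28 (SE 0.16, limma adjusted p = 0.18). The difference was -1.46 (SE 0.16, limma adjusted p = 1.6e-05) for H3R relative to H0R and 0.85 (SE 0.16, limma adjusted p = 0.012) for A3R relative to A0R, so the lines moved in opposite directions.

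Interferon response genes numbered 40, of which 25 were lower and 6 higher in H3R (median -0.55), against 17 lower and 10 higher between the unselected lines (median -0.10). The antiviral enzymes OAS1 (-4.43) and OAS3 (-3.17) and PARP9 (-3.01) were lower, and the nucleic acid sensor IFI16 (3.53), the entry inhibitor IFITM3 (2.15) and IFI44L (1.90) were higher in H3R. OAS3 and PARP9 had differed less before selection, by -2.04 and -1.96, and IFI16 and IFI44L had differed more, by 5.25 and 3.38.

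Of 26 antigen presentation genes, 17 had a probe set of their own and were tested, and the others could not be assessed. Of the 17, 9 were lower and 1 higher in H3R (median -0.95), against 5 lower and 2 higher before selection (median -0.14). The member higher in H3R was B2M (0.61), and with cyclic loess scaling 0 were called higher. PSMB8, a catalytic subunit of the immunoproteasome that cuts proteins into peptides for display, had 5.01, 4.92 and 4.85 in H3R, against 7.01, 6.74 and 6.65 in A3R. It was new, with a difference of -1.88 (SE 0.18, limma adjusted p = 5.7e-07), where the unselected lines had 6.44, 6.56 and 5.79 in H0R, against 6.57, 6.47 and 6.17 in A0R. The peptide transporter TAP1 (-2.38, against -1.65 before) and the immunoproteasome subunit PSMB9 (-1.51, against -1.05 before) also were lower. Of the list's other members, looked up after their values were seen, the peptide trimmers ERAP1 (-1.01) and ERAP2 (-1.08) were new differences as well, and the loading protein TAPBP was -1.2, against -0.32 before, with its change unresolved.

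Neuroendocrine secretory granule genes encode the cargo of dense-core granules, the proteins that pack and process it, and the machinery of its release. Of 34 tested, 16 were higher and 3 lower in H3R (median 0.29), against 21 higher and 5 lower before selection (median 1.02). Those at least 2-fold higher numbered 5 after selection and 17 before, against 1036 and 1212 of all 16939 genes. Of the 34 differences 16 remained, where 32.4% of all genes did, and 8 vanished, where 3.14% of all genes did. The change in line difference was called for 19 of the 34, and for 11.8% of all genes. The granule cargo CHGA had 4.71, 4.94 and 4.76 in H3R, against 4.68, 4.80 and 4.84 in A3R. These arrays overlap, while H0R had 8.21, 8.25 and 7.19, against 4.56, 5.0 and 4.70 in A0R, so 3 H0R arrays alone were bright. The difference was 0.03 (SE 0.22, limma adjusted p = 0.94) after selection and 3.12 (SE 0.22, limma adjusted p = 1.9e-08) before. SCG3, which sorts cargo into granules, had 3.90, 3.95 and 3.85 in H3R, against 3.39, 3.12 and 3.35 in A3R. A small gap of 0.61 (SE 0.10, limma adjusted p = 1.1e-04) was left at levels close to the background, where H0R had 9.0, 8.97 and 8.91, against 3.29, 3.33 and 3.27 in A0R.

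The other granule cargo genes narrowed without vanishing: CHGB to 0.50 after selection, against 4.45 before it, and SCG2 to 2.39, against 5.69. The release protein UNC13A narrowed to 2.06, against 4.72. The vesicle GTPase RAB3C and the vesicle protein NSG2 vanished, with 0.18 and -0.16 after selection and 3.68 and 3.33 before. Among members looked up after their values were seen, the vesicle protein SYP vanished (-0.25, against 2.59), and VGF (0.90, against 3.61), STX1A (0.87, against 3.06) and PTPRN (0.72, against 3.20) narrowed. The processing enzyme CPE stayed higher in H3R by 2.60, against 3.09 before, and UCHL1, a deubiquitinase of neurons, stayed lower (-5.35). The synaptotagmin SYT13 widened to -4.11 (SE 0.22, limma adjusted p = 1.6e-09), against -1.35 before, and it was higher in A3R than in A0R by 2.70 (SE 0.22, limma adjusted p = 1.3e-05).

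SCG3 and CHGA were both lower in HTB56 after selection, with differences of -5.06 for SCG3 and -3.08 for CHGA in H3R relative to H0R. The promoter of SCG3 is shown because its HTB56 level changed more than that of CHGA. The sequence is the 300 bases around the gene start given by RefSeq on GRCh38.p14, from 250 before to 50 after it, 5′ to 3′ on the gene's strand, with CG pairs, the sites of DNA methylation, in capitals. SCG3 lies on the plus strand at chr15:51681253-51681552 and holds 18 CG pairs, where the median of 12780 promoters of tested protein-coding genes is 24.0.
SCG3: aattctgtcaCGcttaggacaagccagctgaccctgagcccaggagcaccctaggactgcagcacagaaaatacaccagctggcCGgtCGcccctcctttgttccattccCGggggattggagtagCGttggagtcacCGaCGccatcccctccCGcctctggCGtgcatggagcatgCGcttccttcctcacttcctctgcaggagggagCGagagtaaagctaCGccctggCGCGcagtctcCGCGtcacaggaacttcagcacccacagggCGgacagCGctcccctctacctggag

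**Figure D3:**
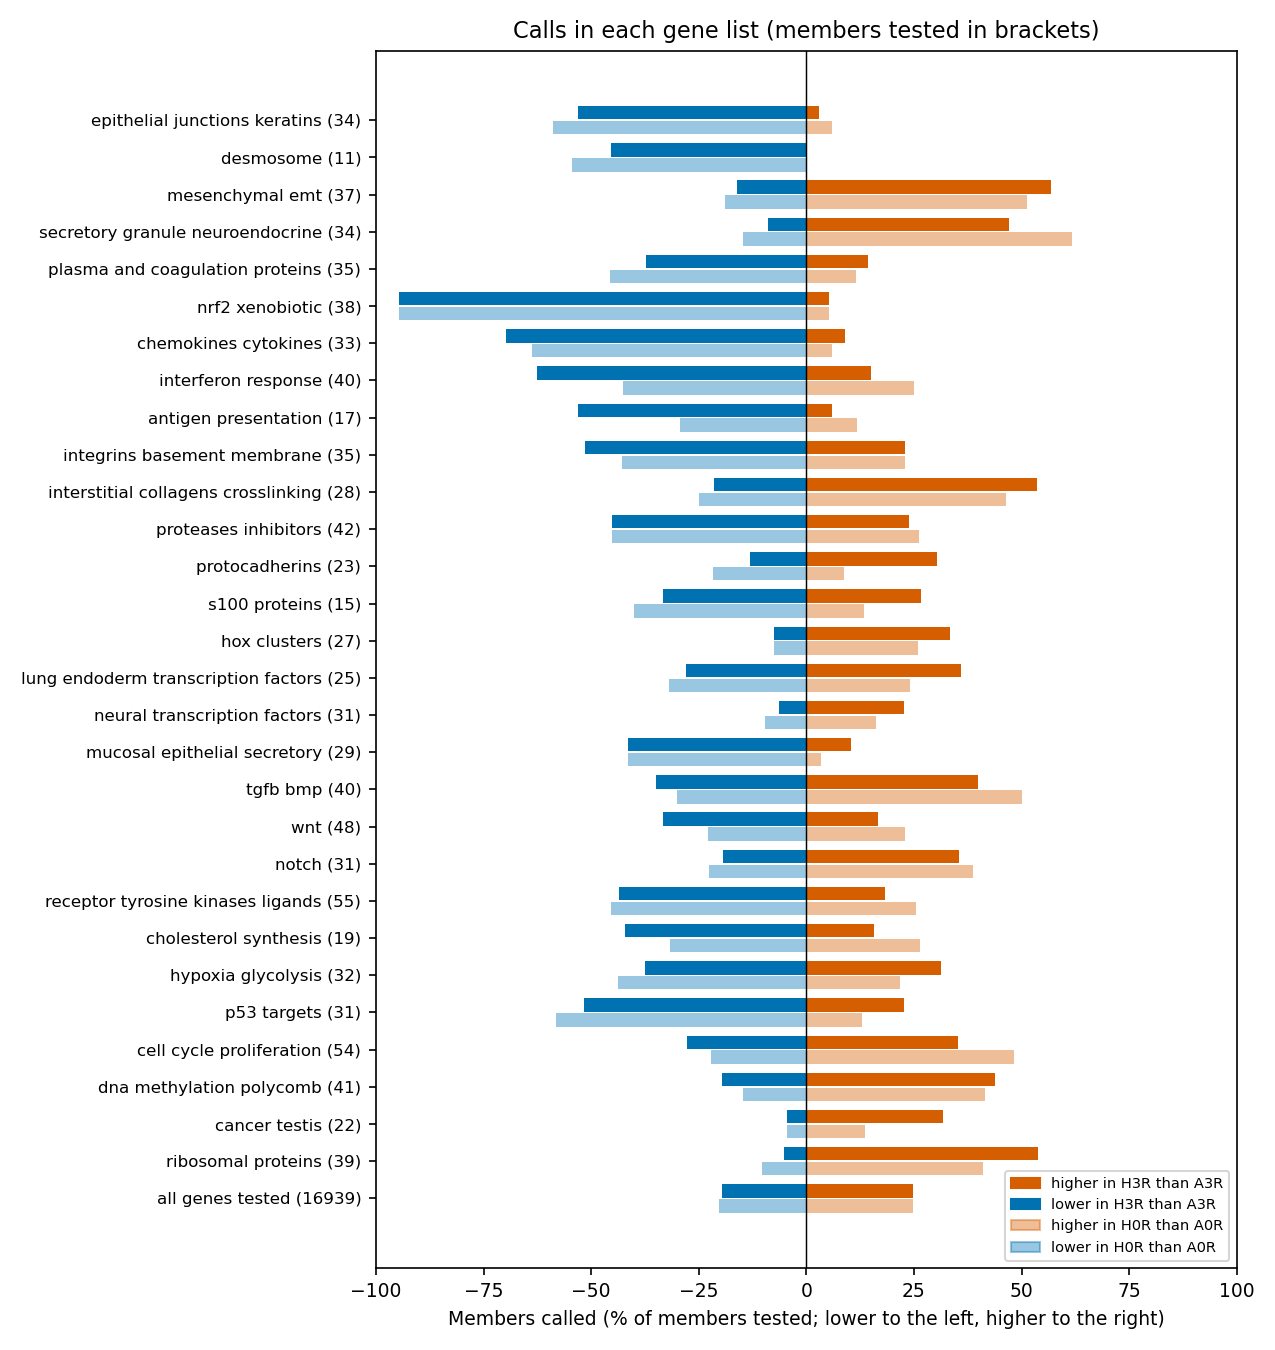
Share of each gene list's tested members called higher (bars to the right) or lower (bars to the left) in HTB56 than in A549, in percent, with the selected lines (H3R against A3R) in dark bars above the unselected lines (H0R against A0R) in pale bars; the last entry holds all genes. The NRF2 list reaches 36 of 38 members lower in both, and the secretory granule list has fewer members higher after selection (16 of 34) than before (21 of 34).

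The largest new difference was a clustered protocadherin. PCDHB3 is a cell adhesion molecule of the beta cluster on chromosome 5, whose members are known from neurons for marking cell identity. It had 7.69, 7.83 and 7.65 in H3R, against 3.95, 3.76 and 3.34 in A3R. In the unselected lines it had 3.42, 3.63 and 3.79 in H0R, against 3.69, 3.74 and 4.16 in A0R. The 3 H3R arrays were bright and all other arrays were near the background, and the difference was 4.04 (SE 0.16, limma adjusted p = 6.0e-11), or 16.4-fold. It was the single new gene among the 123 differences of 16-fold or more, and the other 122 remained from before selection. Its neighbour PCDHB2 turned round, with 8.43, 8.13 and 8.51 in H3R, against 7.11, 7.05 and 7.22 in A3R, and 4.94, 4.86 and 5.26 in H0R, against 6.96, 6.74 and 6.63 in A0R. H3R arrays were above all others and H0R arrays below all others, by 1.23 and -1.75 relative to the A549 group of the same stage.

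The whole protocadherin list had 23 genes tested, of which 7 were higher and 3 lower in H3R, against 2 higher and 5 lower before selection. The share called after selection was 43.5%, close to the 44.6% of all genes. PCDHB14 was new, by 1.59 (SE 0.17, limma adjusted p = 3.0e-06). PCDHB13 turned round (1.36, against -0.46 before) and PCDHB8 was called after selection with its change unresolved (0.73), both looked up after their values were seen. PCDHB5 (-2.07) and PCDHB6 (-1.39) stayed lower. The remaining 8 beta-cluster genes tested, PCDHB1, PCDHB7, PCDHB9, PCDHB10, PCDHB11, PCDHB12, PCDHB15 and PCDHB16, did not pass the test after selection. Outside the cluster PCDH7 (2.13) and PCDH18 (1.68) stayed higher and PCDH9 (-3.08) lower. The list held no alpha-cluster gene among its called members. The neighbouring genes PCDHA3, PCDHA4, PCDHA5, PCDHA6 and PCDHA7 on chromosome 5 all stayed lower in H3R (median -1.12, against -1.38 before). The beta-cluster genes are close relatives, so part of a probe set's signal may come from a neighbour, which was not tested.

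The promoters of PCDHB3 and PCDHB2 are shown because these neighbours were the 2 beta-cluster genes with the highest levels gained in H3R relative to H0R, 4.11 and 3.33. Both lie on the plus strand of chromosome 5 (GRCh38.p14, RefSeq), PCDHB3 at chr5:141100223-141100522 with 12 CG pairs and PCDHB2 at chr5:141094365-141094664 with 10. The capitals mark GGTGGCGCTG, the longest run of letters that the 2 windows share.
PCDHB3: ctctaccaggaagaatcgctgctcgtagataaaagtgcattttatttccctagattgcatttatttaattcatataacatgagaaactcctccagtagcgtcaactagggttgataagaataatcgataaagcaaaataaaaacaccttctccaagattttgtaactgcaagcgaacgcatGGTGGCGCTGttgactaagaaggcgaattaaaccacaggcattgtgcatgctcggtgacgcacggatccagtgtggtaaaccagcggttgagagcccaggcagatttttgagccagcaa
PCDHB2: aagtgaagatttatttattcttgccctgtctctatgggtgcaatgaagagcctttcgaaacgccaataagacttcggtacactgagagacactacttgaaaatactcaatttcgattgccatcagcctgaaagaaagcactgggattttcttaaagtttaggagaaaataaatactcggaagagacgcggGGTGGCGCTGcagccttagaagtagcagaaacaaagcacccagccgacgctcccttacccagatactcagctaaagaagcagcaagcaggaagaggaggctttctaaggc
The run was found after the sequences were seen. On either strand it occurs in 53 of 12780 promoters (0.415%) and in 11 of the 13 beta-cluster promoters searched, including those of genes that were not called, so its presence does not set PCDHB3 and PCDHB2 apart.

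**Figure D4:**
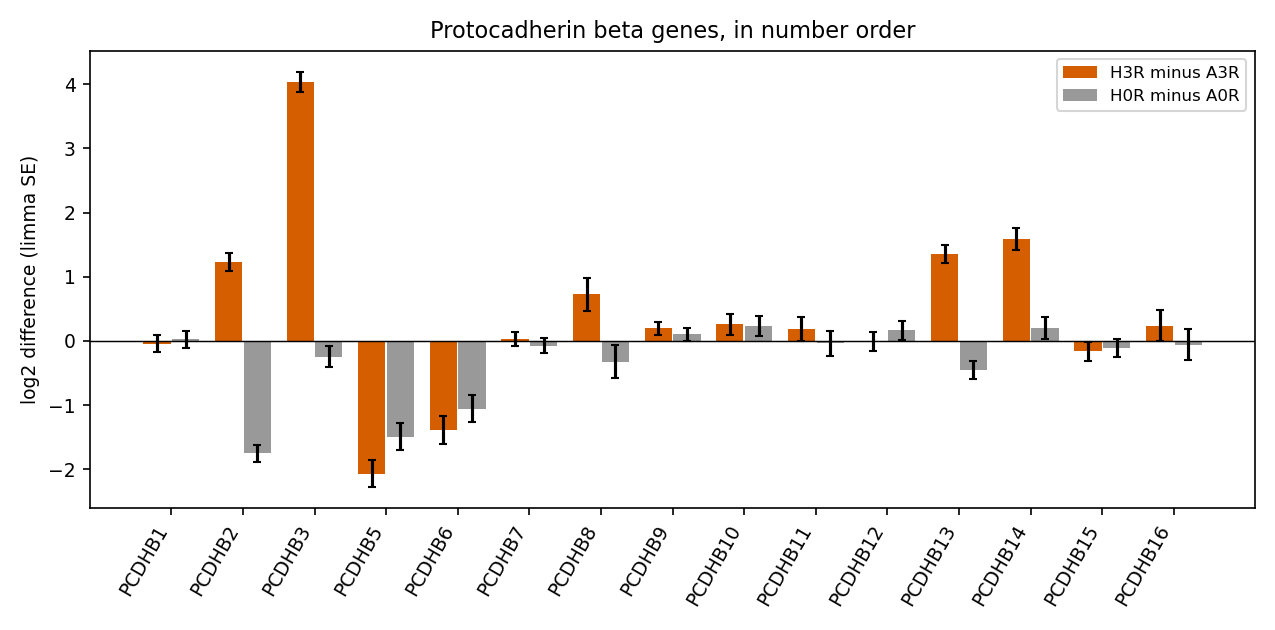
Line difference (log2) with its limma standard error for 15 genes of the protocadherin beta cluster in number order, after selection (H3R minus A3R, orange) and before it (H0R minus A0R, grey). PCDHB3 reaches 4.04 after selection and -0.25 before it, PCDHB2 is 1.23 after selection and -1.75 before it, and PCDHB5 and PCDHB6 are below 0 at both stages.

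Other new differences higher in H3R included genes of cell surface and secretion. TSPAN8, a tetraspanin of epithelial cells, had 6.76, 6.21 and 6.10 in H3R, against 4.17, 4.18 and 4.38 in A3R, and 3.62, 3.64 and 3.37 in H0R, against 3.08, 3.67 and 3.48 in A0R. H3R arrays were above all others, by 2.12 (SE 0.17, limma adjusted p = 1.4e-07) over A3R, and A3R was itself above A0R by 0.83. Its promoter is shown beside those above because it holds 1 CG pair where they hold 10 to 18. It lies on the minus strand at chr12:71157950-71158249 (GRCh38.p14, RefSeq), with the CG pair in capitals.
TSPAN8: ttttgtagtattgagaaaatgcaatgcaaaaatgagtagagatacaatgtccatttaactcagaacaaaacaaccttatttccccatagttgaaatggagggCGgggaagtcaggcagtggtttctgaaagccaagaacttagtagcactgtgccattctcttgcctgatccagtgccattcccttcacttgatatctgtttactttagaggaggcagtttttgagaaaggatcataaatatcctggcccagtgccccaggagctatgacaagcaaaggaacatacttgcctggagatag
F3, the tissue factor that starts clotting, had 8.08, 7.73 and 7.57 in H3R, against 5.96, 5.91 and 6.18 in A3R. Before selection it had 6.29, 6.29 and 6.14 in H0R, against 6.02, 6.20 and 6.08 in A0R. The H3R arrays stood above all others, by 1.78 (SE 0.13, limma adjusted p = 3.8e-08) over A3R, and F3 was the only new gene higher in H3R among those named from the plasma and coagulation list.

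The remaining new genes higher in H3R were the kinase NRK (2.39), the GABA receptor subunit GABRA3 (2.29), the GTPase regulator RAP1GAP2 (2.12), the cancer-testis antigen MAGEC2 (2.10), the membrane protein PLXDC2 (1.98), the antibacterial enzyme LYZ (1.91), TMEM45A (1.77) and ZNF239 (1.68). Without A0R replicate 2 a difference before selection was called in PLXDC2 (-0.35, limma adjusted p = 0.028) and in TMEM45A (0.48, limma adjusted p = 0.046), so neither was new by that fit. For NRK, GABRA3, MAGEC2, PLXDC2 and LYZ the A3R, H0R and A0R groups averaged between 3.38 and 4.0, close to the background, and H3R averaged between 5.54 and 5.97. LYZ is also a leukocyte marker, and the leukocyte markers CD68 (0.97, new) and CD14 (-0.93) went in opposite directions. COL3A1, a fibroblast collagen, was new as well (1.29). It averaged 6.71 ± 0.08 in H3R and 5.42 ± 0.20 in A3R (SD, n = 3 each), beside the fibroblast marker means given above.

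New differences lower in H3R after PTGS2 were the histone H2BC12 (-2.06), the carboxypeptidase inhibitor LXN (-2.03), GASK1B (-1.94), MMD (-1.91), PSMB8 (-1.88), the semaphorin and growth factor co-receptor NRP2 (-1.72), the focal adhesion protein TNS3 (-1.65), the matrix protein CCDC80 (-1.64), the collagen receptor MRC2 (-1.64), CPNE4 (-1.59) and the repressor HBP1 (-1.59). For CCDC80 the change in line difference was -1.57 (SE 0.45, limma adjusted p = 0.035), and without A0R replicate 2 it was -1.26 with an adjusted p of 0.085. GASK1B was new through A549. It had 4.13, 4.08 and 4.10 in H3R, against 6.18, 6.14 and 5.80 in A3R, and 4.15, 4.35 and 4.83 in H0R, against 4.23, 4.24 and 4.46 in A0R, so A3R alone stood above the other groups. LXN, like PTGS2, moved on both sides, by -1.16 in H3R relative to H0R and 1.11 in A3R relative to A0R.

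Most of the changes in line difference lay on the HTB56 side. Of the 459 new genes, the within-line change was larger in HTB56 for 415 and in A549 for 44. Of the 532 vanished genes it was larger in HTB56 for 483 and in A549 for 49, and of the 146 turned round for 139 and 7. Over all genes, H3R differed from H0R in 3298, or 19.5%, with 1452 higher (8.57%) and 1846 lower (10.9%). A3R differed from A0R in 297, or 1.75%, with 160 higher (0.945%) and 137 lower (0.809%). The within-line contrasts use the same arrays as the line differences, A0R replicate 2 included, and are given side by side only.

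**Figure D5:**
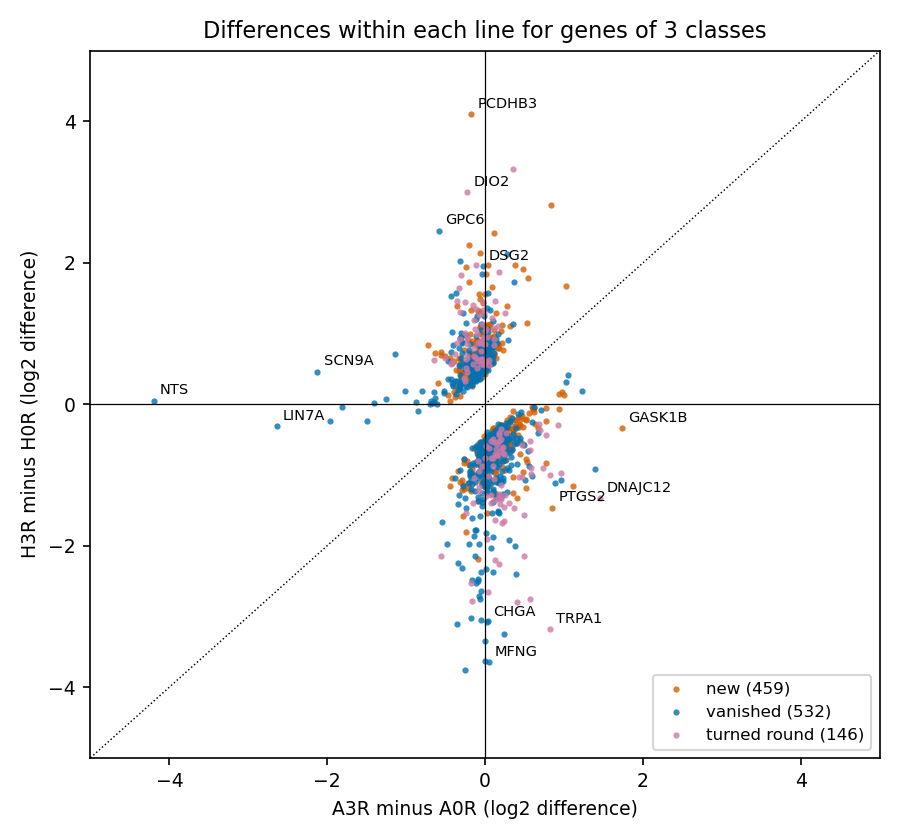
Change within A549 (A3R minus A0R, log2, x axis) and within HTB56 (H3R minus H0R, log2, y axis) for the new, vanished and turned-round genes. Most points lie along the vertical direction, as for PCDHB3 (4.11 in HTB56, -0.18 in A549), while NTS (-4.20), LIN7A and SCN9A in the vanished class and GASK1B (1.73) in the new class lie along the horizontal.

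Among vanished differences that had been higher in HTB56, the first 12 all changed on the HTB56 side. MFNG, a sugar transferase that modifies Notch receptors, had 5.26, 5.46 and 5.33 in H3R, against 5.12, 5.24 and 5.20 in A3R, and 9.26, 9.12 and 8.59 in H0R, against 5.16, 5.28 and 4.98 in A0R. Only the H0R arrays were bright. The same pattern held for the secreted FSTL5 (0.31 after selection, 3.94 before), TMEM145 (0.47 and 3.82), the vesicle protein STXBP5L (0.10 and 3.20), the cancer-testis helicase DDX53 (0.14 and 3.14), GOLGA7B (0.30 and 3.09), the proteoglycan GPC4 (0.12 and 2.82) and the neuronal adaptor subunit AP3B2 (0.27 and 2.75), besides RAB3C, NSG2 and CHGA. Without A0R replicate 2 small differences after selection were called in TMEM145 (0.47, adjusted p = 0.041 in limma) and AP3B2 (0.27, limma adjusted p = 0.046), so these narrowed rather than vanished. KIT, the receptor for stem cell factor, had 3.68, 3.37 and 3.34 in H3R, against 3.41, 3.32 and 3.02 in A3R, and 6.96, 6.10 and 6.65 in H0R, against 3.64, 3.31 and 3.88 in A0R. All groups but H0R were at the background.

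Among vanished differences that had been lower in HTB56, the A549 level was lower after selection in some and the HTB56 level higher in others. NTS, the gut and brain peptide neurotensin, had 3.89, 3.48 and 3.93 in H3R, against 4.88, 3.61 and 4.19 in A3R, and 3.81, 3.51 and 3.83 in H0R, against 8.16, 8.04 and 9.08 in A0R. Only the A0R arrays were bright, and A3R minus A0R was -4.20 (SE 0.29, limma adjusted p = 2.7e-06). LIN7A (-2.64), the sodium channel SCN9A (-2.12), the alcohol dehydrogenase ADH6 (-1.81) and the neuropeptide Y receptor NPY1R (-1.97) were likewise lower in A3R than in A0R. F5, a clotting cofactor, kept a called difference of -0.54 after selection, against -3.21 before, with a change of -2.65 in A549. On the other side, the proteoglycan GPC6 (2.46), PLBD1 (1.53), ZNF558 (2.02), CARD6 (2.13), ZNF114 (1.57) and the complement shield CD55 (1.29) were higher in H3R than in H0R, as was DSG2.

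Of the differences that turned round, TRPA1, an irritant-sensing ion channel, moved furthest. It had 4.14, 4.25 and 4.40 in H3R, against 6.95, 6.70 and 7.23 in A3R, and 7.27, 7.50 and 7.57 in H0R, against 6.06, 5.96 and 6.39 in A0R. H0R arrays were above A0R arrays and H3R arrays below A3R arrays, a separation that the rule for naming turned-round genes required. DIO2, which activates thyroid hormone, turned the other way, with 7.22, 7.25 and 7.56 in H3R, against 5.36, 4.67 and 4.80 in A3R, and 4.22, 4.21 and 4.61 in H0R, against 5.15, 4.88 and 5.48 in A0R. PLEK2 (-1.47, against 1.85 before), the tetraspan protein TM4SF18 (-1.97, against 1.23), the sodium channel SCN8A (-1.01, against 1.33), the corepressor TLE4 (-1.33, against 1.0), the chaperone DNAJC12 (-1.78, against 1.0), MANEAL (-1.64, against 0.97), the nutrient-sensing GTPase RRAGD (-1.82, against 0.88) and the potassium channel KCNN4 (-1.10, against 0.84) were lower in H3R after having been higher in H0R. UCP2, a mitochondrial carrier, was higher after having been lower (0.98, against -1.14), as was PCDHB2. For RRAGD the difference before selection was not called without A0R replicate 2 (0.89, limma adjusted p = 0.075).

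Among the 5496 remaining genes, 855 had a called change in the size of the difference, of which 312 widened and 543 narrowed. DIAPH2, an actin-nucleating formin, had 3.26, 3.36 and 3.21 in H3R, against 7.17, 7.26 and 7.16 in A3R, and 6.77, 6.61 and 6.70 in H0R, against 7.08, 7.07 and 6.95 in A0R. H3R arrays alone were at the background, and the difference widened to -3.92 (SE 0.09, limma adjusted p = 4.9e-13). The carbonic anhydrase relative CA8 widened to -3.41, against -0.65 before, and the enzyme RIMKLB to -3.10, against -0.49. The RIMKLB arrays of H0R and A0R overlapped, and without A0R replicate 2 that earlier difference was not called (-0.43, limma adjusted p = 0.13). On the higher side the collectin COLEC10 widened to 3.88, against 0.88, and the adhesion receptor CD96, known from T and NK cells, to 4.34, against 1.81. Among the narrowed, the motility-linked calcium binder S100A4 had 9.76, 9.59 and 9.53 in H3R, against 10.61, 10.84 and 10.42 in A3R, and 6.48, 6.95 and 6.65 in H0R, against 10.68, 10.54 and 10.38 in A0R. The HTB56 level had moved by 2.94 and the A549 level by 0.09, and the gap was -1.0 after selection, against -3.84 before. AGR2, a disulfide isomerase of mucus-making cells, narrowed in the same way (-2.35, against -4.61), while the G protein regulator RGS1 (2.08, against 5.20), UGT8 (0.68, against 3.63), SIGLEC15 (0.62, against 3.43) and the gelatinase MMP2 (1.66, against 4.03) narrowed with lower HTB56 levels after selection.

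The matrix genes divided by kind. Interstitial collagens and cross-linking genes had 15 of 28 higher and 6 lower in H3R (median 0.48), against 13 higher and 7 lower before selection, led by COL6A3, the matrix proteoglycan LUM (2.47), COL12A1 (2.07) and COL6A1 (1.90). The elastic fibre protein EFEMP1 (-2.42) and the collagen hydroxylase PLOD2 (-1.41) were lower. Integrins and basement membrane genes had 18 of 35 lower and 8 higher. The laminin chain LAMA4 (4.62) and the collagen receptor ITGA2 (1.41) were higher, and the hemidesmosome integrin ITGB4 (-3.70) and the basement membrane collagens COL4A2 (-2.14), COL4A5 (-2.07) and COL4A6 (-2.03) lower. COL4A5 and COL4A6, neighbours on the X chromosome, had widened, with -0.96 and -0.86 before selection. Of 42 proteases and inhibitors, 10 were higher and 19 lower. The interstitial collagenase MMP1 was higher by 2.93 (SE 0.23, limma adjusted p = 9.9e-08), against 1.36 before, with ADAM19 (3.05), and the matrilysin MMP7 (-5.05), the cathepsin CTSS (-2.93) and the antiprotease SLPI (-2.57, against -4.87 before) were lower.

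Plasma and coagulation genes had 13 of 35 lower and 5 higher in H3R, against 16 lower and 4 higher before. APOH (-4.02), the complement protein C3 (-3.66) and SERPINA3 (-3.42, against -1.81 before) were lower, and the thrombin inhibitors SERPIND1 (2.12) and SERPINE2 (1.96) and the urokinase receptor PLAUR (1.46) were higher. Mucosal secretory genes had 12 of 29 lower and 3 higher. CEACAM6, an adhesion molecule of mucosal cells, was lower, with a difference of -5.82 (SE 0.18, limma adjusted p = 4.8e-12), against -4.19 before, with the mucin-branching enzyme GCNT3 (-5.07) and the mucins MUC13 (-4.98) and MUC5B (-2.38). In CEACAM6 and MUC13 the A549 level was higher after selection than before, by 1.31 and 1.45. S100 genes had 4 of 15 higher and 5 lower, with S100A2 widened to 2.83, against 0.56 before.

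Growth factor and signalling lists held large differences in both directions. Of 55 receptor tyrosine kinases and ligands, 24 were lower and 10 higher in H3R. The ephrin receptor EPHA4 (4.51), its ligand EFNB2 (4.44) and the growth factor PDGFC (3.99) were higher, and the ERBB ligand NRG1 (-5.08), PDGFD (-4.11), the binding protein IGFBP3 (-3.82) and the KIT ligand KITLG (-2.34) lower. Of 48 Wnt genes, 16 were lower and 8 higher. The receptor LGR5 (3.19) and the effector LEF1 (1.88) were higher, and the agonist RSPO3 (-5.72), its receptor LGR4 (-3.92) and the Frizzled-removing ligase RNF43 (-3.31) lower. The Wnt receptor FZD8 was higher by 2.13 (SE 0.10, limma adjusted p = 2.9e-10), against 0.43 before selection. Of 31 Notch genes, 11 were higher and 6 lower, among them the targets HES1 (2.5) and HEY1 (2.5), and the ligand JAG1 had widened to 1.70, against 0.39. Of 40 TGF-beta and BMP genes, 16 were higher and 14 lower, with the ligands BMP5 (3.27), BMP2 (3.21) and INHBA (2.54) higher and the receptor BMPR1B (-1.79) lower. With cyclic loess scaling that last split was 14 higher and 16 lower.

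Developmental regulators differed gene by gene. Of 27 HOX genes, 9 were higher and 2 lower in H3R, so 40.7% were called, against 44.6% of all genes. HOXC10 (2.98) and HOXC11 (2.01, against 0.70 before) led. HOXB2 was higher after having been lower (1.29, against -0.79), and HOXD10 (-0.67, against 1.97) and HOXD11 (-0.34, against 1.5) were lower after having been higher. Of 31 neural transcription factors, 7 were higher and 2 lower, so 29.0% were called, fewer than the 44.6% of all genes. DLX2 (2.73) and DLX1 (2.68) stayed high in HTB56, and PAX6, a neural and eye factor, narrowed to 0.57, against 2.42. Of 25 lung and endoderm factors, 9 were higher and 7 lower, with GATA3 (2.28) and PROX1 (2.28) higher and NR5A2 (-2.76) and FOXA1 (-1.28) lower. SOX2, a stem cell factor, averaged 7.34 ± 0.13 in H3R and 6.60 ± 0.03 in A3R (SD, n = 3 each), and its gap narrowed to 0.74, against 3.31 before, with a difference of -1.67 for H3R relative to H0R and 0.90 for A3R relative to A0R. Of 22 cancer-testis genes, 7 were higher and 1 lower, so 36.4% were called, fewer than of all genes. PRAME was the member that turned round (0.64, against -0.83 before).

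Of 31 p53 targets, 16 were lower and 7 higher in H3R (median -0.27), against 18 lower and 4 higher before (median -0.58). The cell cycle inhibitor CDKN1A (-1.34) and the death receptor FAS (-2.03) were lower, and the death promoter PMAIP1 (1.45) and ZMAT3 (1.29) higher. MDM2, the ligase that removes p53, had 9.66 in H3R and 9.44 in A3R and did not pass the test. Of 54 cell cycle genes, 19 were higher and 15 lower, a split that became 15 higher and 18 lower with cyclic loess scaling. MYC was lower, with a difference of -3.27 (SE 0.13, limma adjusted p = 7.8e-11), with CCND3 (-2.14), while CCND1 (1.34) and the phosphatase CDC25A (1.55) were higher. MKI67, a marker of cycling cells, narrowed to -0.52, against -1.42 before. Of 39 ribosomal protein genes, 21 were higher and 2 lower, and 15 were higher and 6 lower with cyclic loess.

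Of 41 genes of DNA methylation and Polycomb, 18 were higher and 8 lower in H3R. The maintenance methyltransferase DNMT1 was higher by 0.85 (SE 0.11, limma adjusted p = 1.6e-05). The de novo enzymes DNMT3A (0.10) and DNMT3B (-0.06) did not pass the test, and for DNMT3B a difference of -0.89 between the unselected lines had vanished. The H3K27 methyltransferase EZH2 (0.24) did not pass either. SMARCA2, the other catalytic subunit that can take the place of SMARCA4, was lower, with a difference of -1.62 (SE 0.11, limma adjusted p = 1.4e-08), against -0.63 before. Of 32 hypoxia and glycolysis genes, 10 were higher and 12 lower, 6 and 14 with cyclic loess, with ALDOC (2.95) and HK2 (2.40) higher and the carbonic anhydrase CA12 (-5.76) and the mitophagy receptor BNIP3 (-5.16) lower. Of 19 cholesterol synthesis genes, 3 were higher and 8 lower, against 5 and 6 before (3 and 4 without A0R replicate 2). The squalene epoxidase SQLE was new (-1.03), and INSIG1, the sterol-sensing retention protein, turned round (-0.76, against 0.50), though without A0R replicate 2 the earlier difference was not called (0.41, limma adjusted p = 0.089).

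Some differences lay side by side on a chromosome. On chromosome 21 the consecutive genes HSPA13, NRIP1 and USP25 were near the background in both HTB56 groups. USP25, a deubiquitinase chosen after its values were seen, had 3.64, 3.44 and 3.65 in H3R, against 9.18, 9.13 and 9.14 in A3R, and 4.0, 4.05 and 3.71 in H0R, against 8.82, 8.89 and 8.86 in A0R. The next gene tested, CXADR, was at 7.31 in H3R and 8.0 in A3R, a difference of -0.69. Runs of at least 4 neighbouring genes that differed 2-fold or more in 1 direction included AKR1E2, AKR1C1, AKR1C2 and AKR1C3 on chromosome 10 (median -5.63), CP, TM4SF18, TM4SF1 and TM4SF4 on chromosome 3 (median -3.69), PSMB8, TAP1, PSMB9 and HLA-DMB on chromosome 6 (median -2.01), MBNL2, RAP2A, IPO5 and FARP1 on chromosome 13 (median 1.71), and the zinc finger genes ZNF600, ZNF28, ZNF468, ZNF320 and ZNF816 on chromosome 19 (median 1.79, against 0.79 before selection). By chromosome, the share of genes higher in H3R was greatest on 13 (42%), and the share lower was greatest on 17 (30.6%), 9 (29.8%) and X (27.5%). Copy number was not measured here.

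The median CG content of the promoters differed among the classes, with overlapping quartiles. The median number of CG pairs in the 300-base window was 25.0 for at least 2-fold differences that remained and were higher in HTB56, and 24.0 for those that remained and were lower. The other classes were likewise limited to differences of at least 2-fold. The median was 24.0 for new genes higher in H3R (33 promoters, quartiles 14 and 35) and 13.5 for new genes lower in H3R (36 promoters, quartiles 5 and 30). It was 19.0 for vanished genes that had been higher in H0R (84 promoters) and 19.5 for those that had been lower (42 promoters). These medians are descriptions with no test.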

How the data were processed

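Total RNA from 12 cell line samples was labelled for Affymetrix whole-transcript arrays. The deposited values are log2 levels that the authors summarised by RMA. The submitters' processing notes name Affymetrix Expression Console as the software, with versions not given in the sources used here. Of 33297 probe sets, 19460 carried 1 gene symbol, 1754 several and 12083 none in the platform annotation, and only the first kind was used, with the brightest probe set per gene. Genes above an array's 20th percentile on at least 3 arrays were kept (16939).

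All 12 arrays were fitted with 1 mean per group in limma 3.58.1 (R 4.3.3, lmFit and eBayes), and p-values were adjusted by Benjamini-Hochberg over all genes. The line differences were H3R minus A3R and H0R minus A0R, and the test of their change was the difference between them. The test was checked on simulated data. The simulated noise was independent between arrays, with no replicate-number effect and no outlying array, so the check does not cover those features of the data. Arrays of the same replicate number deviated together from their group means (r 0.16 to 0.549, against -0.417 to 0.204 for different numbers, and each of 12 arrays was closest to its own number). The number was used only to pair arrays for the median distance and in the replicate block alternative. The main fit, which gave the SE, p-values, calls and classes reported, ignored it. With 3 arrays a group, precision is set by that number.

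The groups compared, the gene lists and the genes named were chosen with earlier results of these data known. Named genes were protein-coding genes with non-overlapping groups: the 12 largest and 12 lowest differences, the 12 largest new and vanished ones in each direction, 12 that turned round, 8 that widened and 8 that narrowed most, up to 4 per list and direction, and a fixed set. Alternatives covered the filter, the probe set rule, cyclic loess scaling, the replicate block, other eBayes settings, array weights, thresholds, the selected arrays alone and leaving out each array. Those for the gene lists were chosen after seeing the data. Promoters came from RefSeq on GRCh38.p14.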

Additional observations from a re-analysis of the deposited data

Results flagged for a closer look

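The difference between the lines changed with selection in 2000 genes by limma's test of the change itself. Among them are the genes named above whose direction turned round. The line difference after selection minus that before it was -4.01 for TRPA1, -3.32 for PLEK2, -3.19 for TM4SF18, -2.78 for DNAJC12, -2.70 for RRAGD, -2.61 for MANEAL, -2.34 for SCN8A, -2.33 for TLE4 and -1.94 for KCNN4, genes that were lower in H3R than in A3R and had been higher in H0R than in A0R. It was 3.22 for DIO2, 2.98 for PCDHB2 and 2.13 for UCP2, genes that were higher in H3R than in A3R and had been lower in H0R than in A0R. The rule that named these 12 genes required arrays that did not overlap at either stage, so their separation is no further result. After selection 51.6% of all genes did not overlap.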

How the results depend on the processing

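Of 5929 values of the 313 named genes under the alternatives, 5844 kept their direction and their side of the threshold, 47 lost and 21 gained a call, and 17 changed sign. All sign changes were in genes that were not called. The H3R minus A3R difference became -0.0353 for GPC6 with cyclic loess and -0.0444 for ZNF114 with array weights. With 1 array left out it ranged from -0.0404 to 0.0777 for CHGA, -0.0721 to 0.0774 for GPC6, -0.0500 to 0.2012 for SCN9A, -0.0881 to 0.0186 for DSG2, -0.1433 to 0.0232 for CARD6, -0.0042 to 0.1468 for ZNF114, -0.1062 to 0.0113 for NPY1R and -0.1431 to 0.0293 for DNMT3B.

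With the replicate block the line difference changed in 3458 genes, 833 vanished, 737 were new and 315 turned round, and of the original sets 448, 373 and 146 were kept. With an adjusted p below 0.01 the counts were 1036, 338, 234 and 56, fewer by construction. For the other settings the cause was not tested. A test against a fold of 1.2 called 4556 genes between H3R and A3R. With 1 array left out the H3R against A3R count ranged from 6656 to 7669, the changed differences from 1524 to 1951, the vanished from 415 to 522, the new from 311 to 478 and the turned round from 108 to 147. With cyclic loess 48.4% of the called genes were higher in H3R, against 55.8% as reported. Probe sets with levels near the background limit how large a fold can be measured.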
